A study of Homo sapiens with 14 samples.

Results

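GSK591 inhibits PRMT5, the enzyme that makes most symmetric dimethylarginine in cells, and the comparison described here asked how transcription in GSK591-treated cells differed between 3 h and 15 min of exposure. The members are 4 of the 14 libraries of the series: 2 libraries of A549 cells given 1 µM GSK591 for 3 h and 2 of A549 cells given 1 µM GSK591 for 15 min, chosen by their labels alone. A549 is an established human lung adenocarcinoma line, and all groups carried 0.01% DMSO. The assay was precision run-on sequencing (PRO-seq), in which RNA polymerases that are engaged on DNA add labelled nucleotides to their transcripts in permeabilised cells. Reads thus report engaged polymerases and not stored RNA, and a count per gene does not separate paused from elongating polymerases. Further groups of 2 libraries were untreated cells labelled 15 min, cells given 1 µM MS023, which inhibits the type I arginine methyltransferases, for 15 min or 3 h, and cells given either inhibitor with 100 nM dexamethasone for 15 min. The inhibitor was present on both sides of the comparison. The 14 libraries included no untreated 3 h group, so the added hours of inhibitor and the added hours in culture cannot be told apart. The labels do not say whether the libraries of a pair came from separate cultures, and p-values then measure only the spread between these libraries, which may be technical.

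PRMT5 works with its partner WDR77 and adds symmetric methyl marks to arginines of spliceosomal Sm proteins, of histones and of many RNA-binding proteins. Its loss is known to change the splicing of many transcripts, MDM4 among them, and to activate p53 in a range of cells. Heat shock chaperone genes, immediate early genes and p53 target genes are all controlled at initiation and at the release of paused polymerase, which is why they can change within minutes to hours.

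The GSK591 libraries held 7780485 to 9219869 counts each, of which 43.5% to 48.6% fell on mitochondrial genes. Replicates correlated at a Pearson's r of 0.980 at 15 min and 0.982 at 3 h on log2 CPM (counts scaled to a common library size) over genes, and genes are not independent of each other. The chi-square per degree of freedom between replicates was 2.85 and 3.66, above the sampling noise, so neither pair looked like a repeat deposit of 1 library. In genes called higher at 3 h, the 15 min replicates were not equally far from the 3 h libraries. Replicate 1 had the higher CPM of the pair in 67.2% of these genes, in 55% of the genes called lower and in 49.5% of the genes not called. PRMT5 itself, which the inhibitor targets as a protein and not at its gene, had 13.5 and 14.7 CPM at 15 min and 15.0 and 15.4 CPM at 3 h, and the difference did not pass the test (log2 fold change 0.10 ± 0.16 SE, edgeR adjusted p = 0.78). Epithelial and A549 markers summed to 1168 to 1273 CPM at 15 min and to 1191 to 1286 CPM at 3 h, with 0 of 10 called. The leukocyte markers PTPRC and CD3E and the fibroblast markers COL1A2, DCN and LUM were at 0 in all 4 libraries. The fibroblast marker COL1A1 had 4.83 and 7.75 CPM at 15 min and 7.28 and 6.51 CPM at 3 h and was not called. Fibroblast markers summed to 5.7 to 8.5 CPM at 15 min and to 6.7 to 7.6 CPM at 3 h. Endothelial markers summed to 0.236 to 0.358 CPM at 15 min and to 0.950 to 1.16 CPM at 3 h, and leukocyte markers to 7.18 to 9.06 CPM and to 5.59 to 6.05 CPM, and their part in the results was not tested. NKX2-1, the lineage factor of alveolar epithelium, did not pass the count filter.

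From 15 min to 3 h of GSK591, 1405 of 21910 tested genes changed, which is 6.41% of them (edgeR quasi-likelihood test, Benjamini-Hochberg adjusted p under 0.05). Of these, 799 were higher at 3 h (3.65% of genes tested) and 606 were lower (2.77%). Most changes were small. The median absolute log2 fold change was 0.60 among the higher genes and 0.51 among the lower ones, 122 rose and 69 fell by 2-fold or more, and 385 of the higher and 375 of the lower genes changed by less than 1.5-fold. The median log2 fold change of all tested genes was -0.01. In all 1405 called genes the 3 h and 15 min libraries did not overlap, and this also held for 50.5% of all tested genes. The balance of directions depended on the scaling: 56.9% of called genes were higher with TMM scaling, and 81.7% of the 712 genes called were higher when libraries were scaled by total count alone. Leaving out 1 library left 665 calls without replicate 1 at 15 min, 388 without replicate 2 at 15 min, 634 without replicate 1 at 3 h and 455 without replicate 2 at 3 h. Changes are relative to the average gene, as no spike-in entered the scaling, and more transcribing cells and more transcription per cell cannot be told apart.

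**Figure D1:**
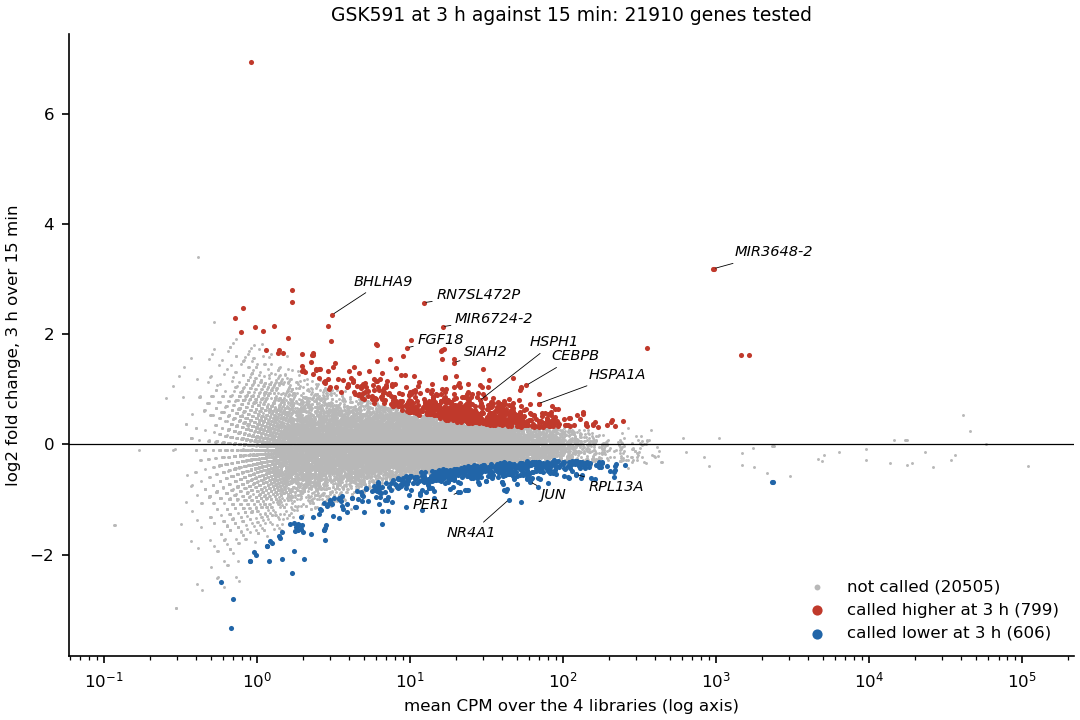
Log2 fold change from 15 min to 3 h of GSK591 (vertical axis) against mean CPM over the 4 libraries (horizontal axis, log scale) for 21910 genes, with 799 genes called higher in red and 606 called lower in blue. Most called genes lie within 2-fold of no change, and the MIR3648 and MIR3687 genes of the ribosomal DNA repeats (MIR3648-2 is labelled) stand apart at high CPM, while the MIR6724 genes (MIR6724-2 is labelled) lie at lower CPM. The topmost point is a gene with 0 counts at 15 min and a mean under 3 CPM.

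Called protein-coding genes were ranked by fold change above a minimum average level of 3 CPM. BHLHA9 and HSPA1L reached this minimum through their 3 h libraries, so their low level at 15 min follows from the ranking and is no finding. SIAH2, a ubiquitin ligase that acts in the hypoxia response, had 11.5 and 8.82 CPM at 15 min and 28.9 and 28.1 CPM at 3 h, a 2.80-fold rise (log2 fold change 1.48 ± 0.16 SE, edgeR adjusted p = 5.4e-08). Both 3 h libraries stood above both 15 min libraries, as in all called genes that rose. BHLHA9, a basic helix-loop-helix factor of limb development, rose most (log2 fold change 2.35 ± 0.39 SE, edgeR adjusted p = 0.00011), from 1.06 and 0.954 CPM to 4.75 and 5.70 CPM. FGF18, a secreted fibroblast growth factor, had 6.01 and 2.74 CPM at 15 min against 15.6 and 13.9 CPM at 3 h, and in untreated cells it had 1.29 and 1.64 CPM. The other leading rises were in PTGES3L, GRAMD2A, LYSET, UBTD2, the ALK receptor ligand ALKAL2, the melanosome transport factor MREG and HSPA1L, with log2 fold changes between 1.48 and 1.88. PTGES3L, LYSET and MREG share exonic sequence with another gene on the same strand, so their counts are uncertain. HSPA1L, a testis-enriched HSP70 gene that lies next to HSPA1A on the opposite strand of chromosome 6, had only 2.00 and 1.43 CPM at 15 min and 5.17 and 4.42 CPM at 3 h.

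HAPLN2 was among the leading falls. This gene encodes a link protein that binds hyaluronan and lies on chromosome 1 (156619294 to 156625725, + strand, GENCODE release 29 on GRCh38). It had 17.8 and 15.7 CPM at 15 min and 6.86 and 7.91 CPM at 3 h, while untreated cells had 14.7 and 17.1 CPM. The level at 3 h was below that of both earlier groups in both libraries, a 2.27-fold fall (log2 fold change -1.18 ± 0.18 SE, edgeR adjusted p = 2.8e-05). COMP, cartilage oligomeric matrix protein (log2 fold change -1.23 ± 0.28 SE), and ACAN, the proteoglycan aggrecan (-1.22 ± 0.28 SE), fell as well. COMP and ACAN were weak, at 5.4 to 8.5 CPM at 15 min. MAGOH, a core subunit of the exon junction complex, had 9.66 and 10.4 CPM at 15 min and 3.27 and 5.46 CPM at 3 h. TMEM25, BTN2A2, LHFPL4, NSG1 and ZNF239 were also among the leading falls, with log2 fold changes from -1.05 to -1.30. Among genes of other types, the lincRNA AC245060.5, the processed pseudogenes PTOV1P1 and CICP22 and the antisense gene AC115618.2 fell most. RN7SL472P, a copy related to the signal recognition particle RNA, rose 5.95-fold from 4.12 and 2.98 CPM to 24.4 and 17.9 CPM. The signal recognition particle RNA genes RN7SL2 (log2 fold change 0.12) and RN7SL3 (-0.01) did not pass the test, and 0 of 3 tested Pol III small RNA genes were called. The calls of ACAN, COMP, TMEM25, NSG1, ZNF239, CICP22, AC245060.5, HSPA1L and PTGES3L were lost when at least 1 of the 4 libraries was left out. SIAH2, MAGOH, LIF, CEBPB and other named genes, 27 of 85, overlap an exon of a gene on the other strand, and the strand setting of the counting is not given in the sources used here. PER1, SRXN1, H2BC15 and others, 14 of 85, share exonic sequence with a gene on their own strand.

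Heat shock chaperones were the protein-coding list with the largest share called. Of 20 listed genes 19 passed the count filter, CRYAB being the exception. Among the 19, 12 rose while 0 fell, beside 3.65% of all tested genes called higher and 2.77% called lower. Their median log2 fold change was 0.50, beside -0.01 for all genes. With any 1 of the 4 libraries left out, 6 to 8 of these 12 genes were still called higher, and 0 members were called lower. The risen members included HSP70s, their cochaperones and partners of HSP90. HSPA1A, a stress-inducible HSP70 on chromosome 6 (31815464 to 31817946, + strand), had 46.6 and 57.1 CPM at 15 min and 93.1 and 80.1 CPM at 3 h (log2 fold change 0.74 ± 0.10 SE, edgeR adjusted p = 7.4e-06). Its near-identical copy HSPA1B had 48.4 and 48.8 CPM at 15 min and 81.1 and 63.8 CPM at 3 h, and reads of these copies may have been divided between them. HSPH1, an HSP110 that exchanges nucleotides on HSP70, rose from 21.3 and 20.5 CPM to 36.8 and 35.9 CPM, the largest log2 fold change of the list (0.80 ± 0.13 SE, edgeR adjusted p = 5.6e-05).

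The cochaperones moved the same way. FKBP4, an HSP90 cochaperone of steroid receptors, rose from 29.2 and 31.0 CPM to 49.8 and 45.1 CPM (log2 fold change 0.66 ± 0.11 SE, edgeR adjusted p = 0.00011). CHORDC1, another HSP90 partner, had 15.1 and 19.6 CPM at 15 min and 29.02 and 28.1 CPM at 3 h. STIP1, which links HSP70 to HSP90, had 48.2 and 52.1 CPM at 15 min and 71.1 and 75.5 CPM at 3 h. The HSP40 genes DNAJA1 and DNAJB1 rose by 0.66 and 0.33 on the log2 scale, the small heat shock protein gene HSPB1 by 0.57, the nucleotide exchange factor gene BAG3 by 0.50 and the mitochondrial cochaperonin gene HSPE1 by 0.50. HSPA8, the constitutive HSP70, had the smallest called rise, from 92.0 and 105 CPM to 123 and 126 CPM (log2 fold change 0.33 ± 0.10 SE). The 7 members that did not pass the test were HSP90AA1 (log2 fold change 0.40), HSPD1 (0.09), DNAJB4 (0.09), HSPA4L (0.07), the regulator HSF1 (-0.05), the endoplasmic reticulum chaperone HSPA5 (-0.16) and HSP90AB1 (-0.33). HSP90AA1 had 60.9 and 101 CPM at 15 min and 116 and 97.7 CPM at 3 h, so the time points overlapped.

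The promoter windows of 3 risen members are shown because they contain the repeated GAA units that heat shock factor is known to bind. The letters searched were the units GAA, TTC and GAA in turn, with any 2 bases (NN) between neighbouring units, on both strands, in RefSeq promoters (GRCh38.p14) running from 250 bases before to 50 after a gene's start. CHORDC1 held 3 overlapping matches in the window printed, and HSPA8 held 1. HSPA1A held no match of this length and is shown with its shorter GAANNTTC match, which starts 106 bases before the start. Capitals mark the matches, all windows read 5′ to 3′ on the gene's strand, and their positions are chr11:90223050-90223149 (- strand) for CHORDC1, chr11:123062137-123062236 (- strand) for HSPA8 and chr6:31815413-31815542 (+ strand) for HSPA1A.
CHORDC1: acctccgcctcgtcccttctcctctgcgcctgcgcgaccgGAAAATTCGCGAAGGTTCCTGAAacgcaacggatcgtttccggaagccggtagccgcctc
HSPA8: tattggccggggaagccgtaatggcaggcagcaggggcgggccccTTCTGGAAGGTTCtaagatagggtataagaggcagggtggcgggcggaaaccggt
HSPA1A: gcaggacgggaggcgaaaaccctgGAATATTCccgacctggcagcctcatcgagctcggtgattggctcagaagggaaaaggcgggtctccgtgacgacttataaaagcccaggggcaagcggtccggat

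The 13-letter match was present in 172 of 35116 promoters of that length (0.49%) and in 37 of the 11430 tested protein-coding genes that matched by symbol (0.324%). It was found in 5 of 526 genes called higher (0.951%), in 0 of 357 called lower, in 3 of the 11 risen chaperone genes with a promoter in the table (CHORDC1, HSPA8 and DNAJA1) and in 0 of 6 that were not called. A match is a description of letters in this window and not a binding site. The shorter pair GAANNTTC or TTCNNGAA, which every longer match contains, was present in 13.5% of all promoters.

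Called rises were also found among targets of p53. Of 29 listed genes, all of which passed the filter, 11 rose (beside 3.65% of all genes tested) and 0 fell (beside 2.77%). Their median log2 fold change was 0.34. With any 1 of the 4 libraries left out, 3 to 5 of these 11 genes were still called higher, and 0 members were called lower. BTG2, an antiproliferative gene, had 13.9 and 18.8 CPM at 15 min and 33.4 and 30.0 CPM at 3 h (log2 fold change 0.96 ± 0.14 SE, edgeR adjusted p = 1.8e-05), and it is also an immediate early gene. FDXR, mitochondrial ferredoxin reductase, rose from 36.7 and 34.5 CPM to 52.4 and 56.3 CPM (0.61 ± 0.11 SE, edgeR adjusted p = 0.00040). Both genes kept their call with each library left out in turn, whereas PPM1D and SESN2 did not. The feedback regulators of p53 were among the risen members: MDM2, the ubiquitin ligase that degrades p53, had 69.9 and 72.8 CPM at 15 min and 91.4 and 96.8 CPM at 3 h (log2 fold change 0.40 ± 0.10 SE, edgeR adjusted p = 0.012), and PPM1D, a phosphatase that switches off p53 signalling, rose by 0.55 ± 0.12 SE. CDKN1A, the cell cycle inhibitor p21, had 16.2 and 18.6 CPM at 15 min and 25.5 and 24.9 CPM at 3 h, and untreated cells had 20.1 and 21.8 CPM. Its 3 h libraries stood above all 4 others, and its log2 fold change over 15 min was 0.53 ± 0.15 SE (edgeR adjusted p = 0.027). Over untreated cells its 3 h change was 0.27 and did not pass the test (edgeR adjusted p = 0.27). MDM2 had 83.35 and 74.8 CPM in untreated cells, and its 3 h change over them was 0.25 (edgeR adjusted p = 0.11). BTG2 (0.85), FDXR (0.74) and PPM1D (0.73) were called at 3 h over untreated cells as well.

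The death receptor gene FAS (log2 fold change 0.96), the DNA repair gene DDB2 (0.42), PHLDA3 (0.53), SESN2 (0.47), the nuclease gene AEN (0.34) and the apoptosis gene BAX (0.34) completed the 11. PHLDA3 rose less with GSK591 than with MS023, where its log2 fold change was 1.37 (edgeR adjusted p of the difference 0.011). The proapoptotic gene BBC3 (log2 fold change -0.12), SESN1 (-0.16), XPC (-0.12) and TNFRSF10B (-0.11) did not pass the test and had values below 0. MDM4, whose splicing depends on PRMT5 in other cells, had 28.1 and 24.4 CPM at 15 min and 21.7 and 23.4 CPM at 3 h, a difference that did not pass the test (log2 fold change -0.22 ± 0.16 SE, edgeR adjusted p = 0.47).

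**Figure D2:**
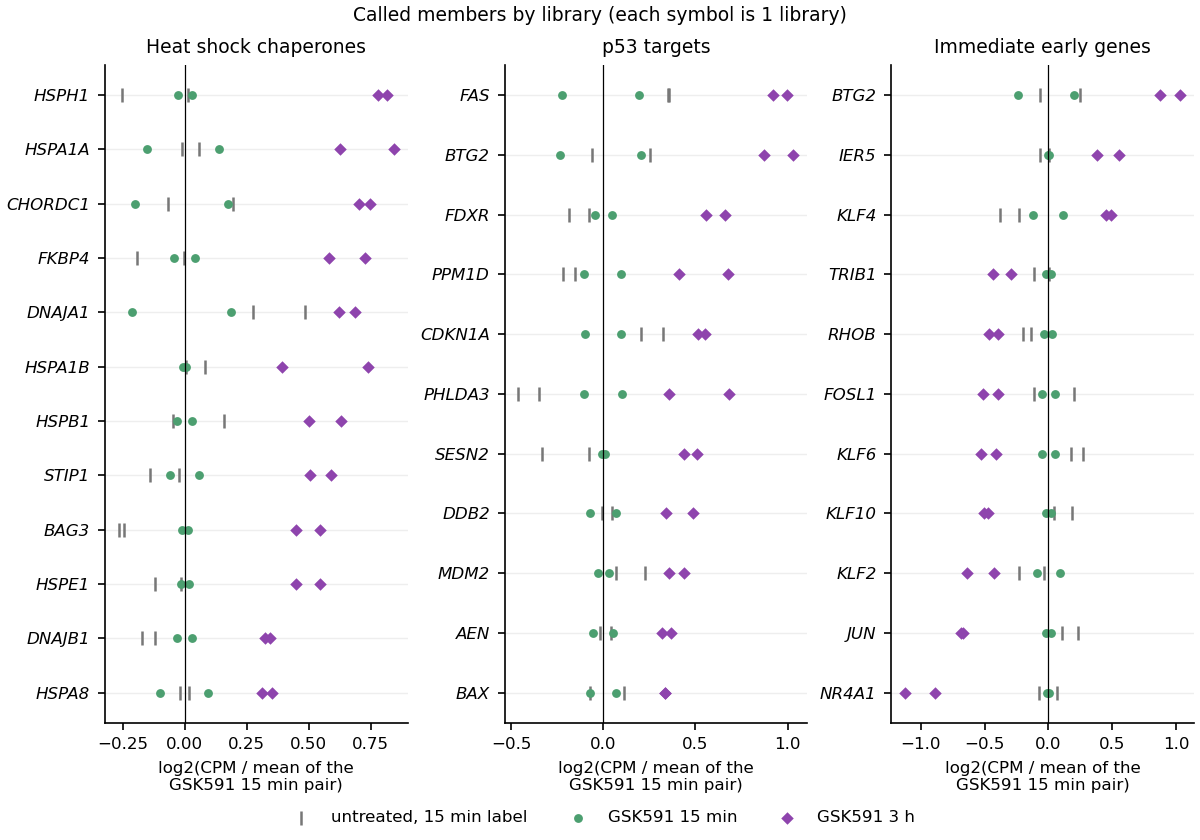
Log2 ratio of CPM to the mean of the GSK591 15 min pair (horizontal axes) for the called members of 3 gene lists, with 1 symbol per library: grey bars for untreated cells, green circles for GSK591 15 min and purple diamonds for GSK591 3 h. All 12 heat shock chaperone genes and all 11 p53 targets shown have both 3 h libraries to the right of both 15 min libraries, and 8 of the 11 immediate early genes have them to the left. Only called genes are shown, and in all 1405 called genes the time points did not overlap, so this separation is not particular to these lists.

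Immediate early genes, which respond first to growth factor and stress signals, changed in both directions. Of 40 listed genes 39 were tested, 8 fell and 3 rose, beside 2.77% and 3.65% of all tested genes, and the median log2 fold change was -0.19. NR4A1, an orphan nuclear receptor, had 58.6 and 59.2 CPM at 15 min and 27.0 and 31.9 CPM at 3 h, with 56.0 and 61.8 CPM in untreated cells. The 3 h libraries held about 2.01-fold less than the 15 min pair (log2 fold change -1.004 ± 0.108 SE, edgeR adjusted p = 3.5e-08). JUN, the AP-1 subunit, fell from 76.4 and 74.6 CPM to 47.4 and 46.9 CPM (log2 fold change -0.68 ± 0.10 SE, edgeR adjusted p = 2.1e-05). The other falls were in the Krüppel-like factor genes KLF2 (-0.53), KLF10 (-0.49) and KLF6 (-0.47), the AP-1 gene FOSL1 (-0.45), the small GTPase gene RHOB (-0.43) and TRIB1 (-0.36). BTG2, IER5 (0.47) and KLF4 (0.47) rose. FOS, EGR1, MYC, DUSP1 and IER3 did not pass the test, with log2 fold changes of -0.24, 0.43, -0.12, -0.04 and 0.00. Scaling by library size alone gave 2 members called lower and 2 higher, so the excess of falls depends on the scaling. With 1 of the 4 libraries left out, 3 or 4 of the 8 falls were still called, while NR4A1 and JUN were called under every alternative.

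Clock and glucocorticoid-responsive genes included further falls. PER1, a clock repressor that glucocorticoids also induce, had 27.4 and 26.1 CPM at 15 min and 14.6 and 14.8 CPM at 3 h, against 26.9 and 29.01 CPM in untreated cells (log2 fold change -0.87 ± 0.15 SE, edgeR adjusted p = 0.00028). The 3 h pair was clearly the lowest. BHLHE40, a repressor tied to the clock and to hypoxia, fell from 152 and 166 CPM to 97.5 and 112 CPM (-0.60 ± 0.10 SE, edgeR adjusted p = 7.0e-05), and untreated cells were higher still, at 195 and 189 CPM. These were the 2 called members of the 18 tested clock genes (11.1% lower, beside 2.77% of all genes), and the list median was -0.23. Of 27 glucocorticoid targets 5 fell and 2 rose, beside 2.77% and 3.65% of all tested genes, with a median of -0.06. The median turned positive (0.0078) with library size scaling, where 1 fell and 2 rose, and 1 to 3 of the 5 falls were still called with 1 library left out. The falls were PER1, TSC22D3, which encodes the glucocorticoid-induced leucine zipper (-0.62), the metallothionein gene MT2A (-0.55), KLF6 and ANGPTL4 (-0.41). FKBP5 and SGK1, common readouts of the glucocorticoid receptor, had log2 fold changes of -0.12 and 0.02 and did not pass the test. No dexamethasone was given to these 4 libraries.

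The 2 glucocorticoid list members that rose were both C/EBP transcription factor genes. CEBPB had 42.0 and 32.3 CPM at 15 min and 85.9 and 70.5 CPM at 3 h, and 27.0 and 23.21 CPM in untreated cells (log2 fold change over 15 min 1.07 ± 0.13 SE, edgeR adjusted p = 8.2e-07). The order of the levels was untreated, 15 min and 3 h, with no overlap between the groups. CEBPD followed the same order with 51.6 and 53.4 CPM in untreated cells, 70.4 and 58.4 CPM at 15 min and 100 and 108 CPM at 3 h (0.69 ± 0.11 SE, edgeR adjusted p = 8.1e-05). At 15 min over untreated cells neither gene passed the test (edgeR adjusted p = 0.091 for CEBPB and 0.56 for CEBPD). Both were called at 3 h over untreated cells. CEBPB is also on the list of ATF4 and stress response genes, where it, SESN2 (0.47) and the mTOR inhibitor gene DDIT4 (0.34) rose. On that list 0 of 23 fell, beside 3.65% of all genes called higher and 2.77% called lower. With any 1 library left out, 1 of these 3 risen genes was still called. ATF4 itself (-0.22), DDIT3 (-0.37) and ASNS (0.31), the textbook members of that response, did not pass the test.

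**Figure D3:**
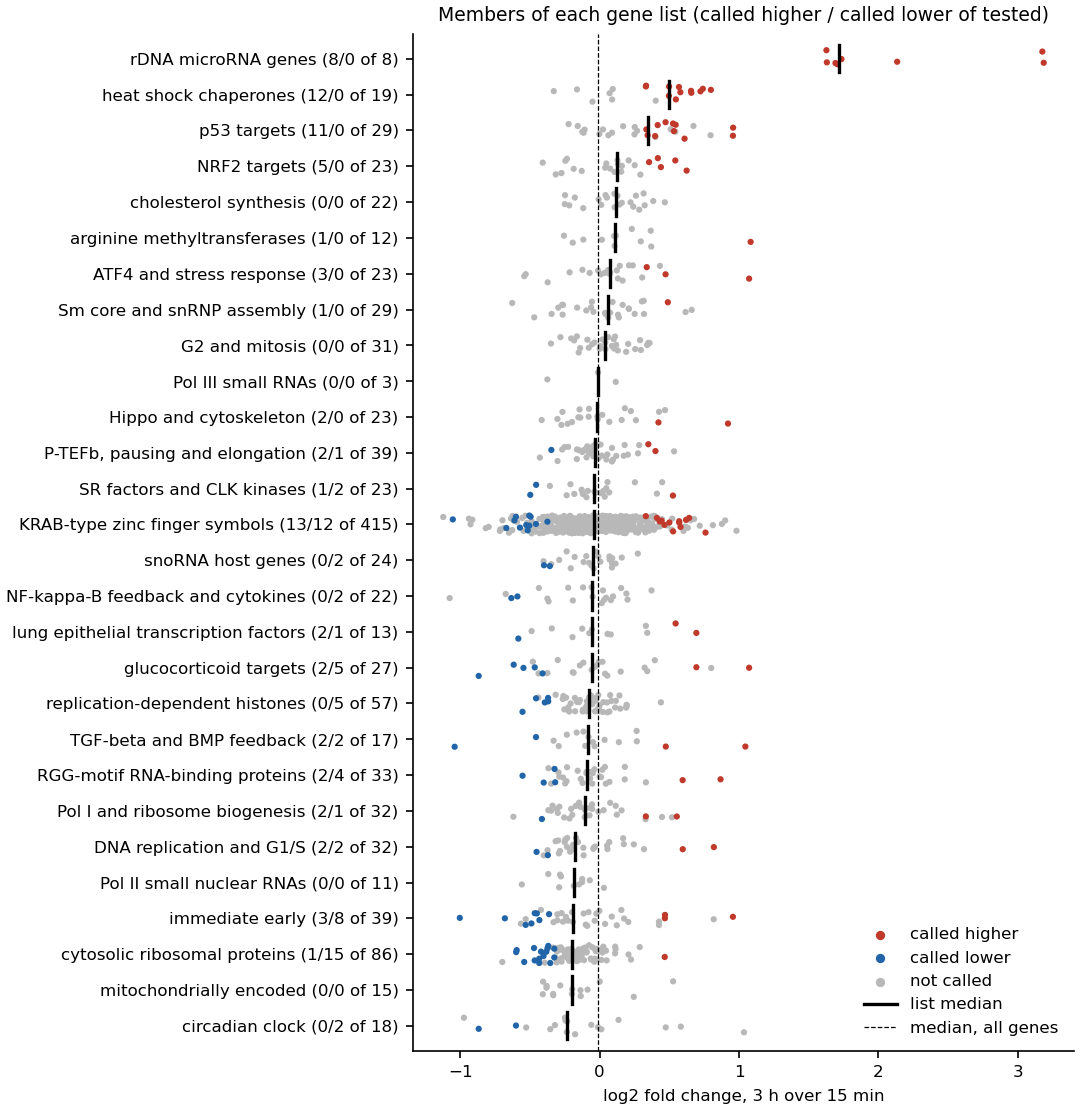
Log2 fold change from 15 min to 3 h of GSK591 for each tested member of 28 gene lists, ordered by list median (black bar), with members called higher in red, called lower in blue and not called in grey; the dashed line is the median of all tested genes. The microRNA genes of the ribosomal DNA repeats, heat shock chaperones and p53 targets lie farthest to the right, and the median of the KRAB-type zinc finger symbols (-0.04) lies near the line.

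Genes for the proteins of the cytosolic ribosome went the other way. Of 86 tested cytosolic ribosomal protein genes, 15 fell (17.4%, beside 2.77% of all tested genes) and 1 rose (beside 3.65%). A log2 fold change below 0 was found in 72 (83.7%, beside 51.5% of all tested genes), and the median was -0.20. RPS23 fell from 129 and 130 CPM to 82.8 and 88.9 CPM (log2 fold change -0.60 ± 0.10 SE, edgeR adjusted p = 9.5e-05). RPL10 and RPL13A fell by 0.60 and 0.54 on the log2 scale. Further falls, from RPL22L1 to RPL37A, lay between -0.47 and -0.33. The gene that rose, RPS27L, is a ribosomal protein paralogue known as a p53 target (0.47, edgeR adjusted p = 0.014). The count of falls was 3 with library size scaling and 4 to 6 with 1 library left out, and the list median was below 0 under every scaling tried, at -0.13 with library size alone. Many ribosomal protein genes have pseudogene copies and host small nucleolar RNAs, so reads may have been divided. RPL13A shares exonic sequence with 5 other genes on its strand. With MS023 over the same times, 30 of the 86 genes were called lower (beside 4.4% of all tested genes) and 1 higher (beside 7.65%). The median with MS023 was -0.25, and 0 of these genes differed between the inhibitors by edgeR's quasi-likelihood test.

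Among histone genes only linker histone genes and 1 core gene passed the test. Of 57 tested replication-dependent histone genes 5 fell (8.77%, beside 2.77% of all genes) and 0 rose (beside 3.65%), with a median of -0.08. With library size alone 1 of the 5 was still called, and with 1 library left out 1 to 4 were. The 5 genes were H1-3 (log2 fold change -0.55), H1-5 (-0.46), H1-4 (-0.37) and H1-2 (-0.37), which encode linker histones that bind DNA between nucleosomes, and H2BC15 (-0.39). H1-3 had 173 and 184 CPM in untreated cells, 135 and 156 CPM at 15 min and 98.7 and 99.1 CPM at 3 h (edgeR adjusted p = 0.00024). SLBP, whose protein binds the stem-loop of histone mRNA, rose from 20.5 and 14.5 CPM to 27.8 and 34.3 CPM (0.82 ± 0.17 SE, edgeR adjusted p = 0.0013). Along with the cyclin gene CCNE1 (0.60) it was 1 of 2 risen genes of DNA replication and the G1/S step, where POLE (-0.37) and GINS2 (-0.45) fell, out of 32 tested. Leaving out at least 1 library ended the calls of SLBP, CCNE1, POLE, GINS2, H1-5 and H2BC15, while that of H1-3 held. For G2 and mitosis 0 of 31 genes were called by edgeR's quasi-likelihood test, with log2 fold changes from -0.35 to 0.36, and 6 had an unadjusted p under 0.05. Of 22 cholesterol synthesis genes 0 were called, with 6 at an unadjusted p under 0.05, and DESeq2 called 0 in both lists.

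Antioxidant genes controlled by NRF2 had 23 tested members, of which 5 rose (21.7%, beside 3.65% of all genes) and 0 fell (beside 2.77%). The list median was 0.13. With 1 library left out, 2 or 3 of the 5 were still called. FTH1 and FTL encode the chains of ferritin, the iron store. FTH1 had 109 and 92.0 CPM at 15 min and 144 and 150 CPM at 3 h (log2 fold change 0.54 ± 0.10 SE, edgeR adjusted p = 0.00064), and FTL had 173 and 182 CPM at 15 min and 249 and 232 CPM at 3 h (0.44 ± 0.10 SE). SRXN1 (sulfiredoxin, 0.62), AKR1C3 (0.42) and GCLC, the catalytic subunit of glutamate-cysteine ligase (0.35), also rose. Each of the 5 calls was lost without at least 1 library. NQO1, HMOX1 and TXNRD1 had log2 fold changes of 0.25, 0.11 and -0.32 and did not pass the test. A549 cells carry an inactivating KEAP1 change, which keeps NRF2 active in untreated cells too.

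Shorter lists are given beside the 6.41% of all tested genes called in either direction. Called members numbered 2 of 23 Hippo and cytoskeleton genes, 4 of 17 TGF-beta and BMP feedback genes (23.5%), 2 of 22 NF-kappa-B genes and 3 of 13 lung epithelial transcription factor genes. YAP1, the coactivator at the end of the Hippo pathway, had 23.20 and 18.5 CPM at 15 min and 37.8 and 41.3 CPM at 3 h (log2 fold change 0.92 ± 0.13 SE, edgeR adjusted p = 8.5e-06), and ACTB rose by 0.42, while the YAP1 targets CCN1, CCN2 and ANKRD1 had values of -0.20, -0.30 and -0.27 that did not pass the test. SMURF2, a ubiquitin ligase for SMADs, rose from 26.5 and 15.7 CPM to 40.0 and 47.4 CPM (1.05 ± 0.15 SE, edgeR adjusted p = 1.8e-05). The 15 min libraries of SMURF2 were far apart, with replicate 2 at the untreated level of 17.2 and 15.9 CPM. BAMBI (0.47) also rose on the TGF-beta list, where SKIL (-0.46) was among the falls. In the NF-kappa-B list NFKB2 (-0.63) and the cytokine gene LIF (-0.59) fell, with 0 of 22 higher. KLF5 (0.55), CEBPD (0.69) and HNF4A (-0.58) were the called lung epithelial transcription factor genes. The calls of ACTB, BAMBI, SKIL, LIF, KLF5 and HNF4A were lost without at least 1 library.

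The machinery around PRMT5 was described by class. Among 12 tested arginine methyltransferase and cofactor genes 1 rose (8.33%, beside 3.65% of all genes) and 0 fell (beside 2.77%). That gene was COPRS, which encodes a histone-binding cofactor of PRMT5 and lies on chromosome 17 (31851864 to 31859337, - strand). It had 11.2 and 13.9 CPM in untreated cells, 21.6 and 15.5 CPM at 15 min and 39.8 and 38.8 CPM at 3 h, a log2 fold change over 15 min of 1.08 ± 0.16 SE (edgeR adjusted p = 2.4e-05). COPRS was called under every alternative. The gene was also called higher in MS023-treated cells over the same times, from 10.3 and 14.9 CPM to 34.2 and 47.0 CPM. That rise was 1.71 on the log2 scale, so the rise of COPRS was not particular to GSK591. The inhibitors' changes in COPRS did not differ by edgeR's quasi-likelihood test (adjusted p = 0.32). WDR77, RIOK1 and CLNS1A, the direct partners of PRMT5, had log2 fold changes of 0.30, 0.37 and -0.12, and PRMT1, the main type I enzyme, of -0.26, none of which passed the test.

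Of 29 tested genes for Sm proteins and snRNP assembly, the main PRMT5 substrates and their helpers, LSM5 alone was called (0.49, edgeR adjusted p = 0.013). LSM5 had 26.7 and 27.6 CPM in untreated cells, 19.55 and 20.98 CPM at 15 min and 27.6 and 29.3 CPM at 3 h. Its 3 h change over untreated cells was 0.07 and did not pass the test (edgeR adjusted p = 0.795). SNRPB had 31.1 and 29.4 CPM at 15 min and 28.3 and 28.4 CPM at 3 h (-0.10 ± 0.12 SE). Among SR splicing factors and their kinases CLK1 rose (0.53) while SRSF10 (-0.50) and SRRM2 (-0.46) fell, out of 23 (13% called, beside 6.41% of all genes). CLK1 had 24.6 and 27.3 CPM in untreated cells, 17.3 and 18.8 CPM at 15 min and 24.8 and 27.3 CPM at 3 h. Its 3 h level was thus also near the untreated one. RNA-binding proteins with arginine-glycine repeats, another substrate class, had 2 higher and 4 lower of 33 (6.06% and 12.1%, beside 3.65% and 2.77% of all genes), but 2 higher and 1 lower with library size alone. HABP4 (0.87) and KHDRBS1 (0.60) rose, and the falls included the cold-inducible RBM3 (-0.55), DDX5 (-0.32) and HNRNPA1 (-0.32). Of 39 genes for pause release and elongation, HEXIM1, the inhibitor of P-TEFb, rose from 180 and 175 CPM to 246 and 222 CPM (0.40 ± 0.10 SE, edgeR adjusted p = 0.010), INTS6 rose by 0.35 and INTS1 fell by 0.35, so 7.69% were called, beside 6.41% of all genes. For Pol I and ribosome biogenesis UBTF (0.33) and POLR1E (0.55) rose and TCOF1 (-0.41) fell, of 32 (9.38% called, beside 6.41% of all genes). The host genes SNHG1 (-0.40) and SNHG17 (-0.36) fell among 24 snoRNA host genes (8.33% called, beside the same 6.41%). Leaving out at least 1 library ended the call of LSM5, CLK1, SRSF10, SRRM2, KHDRBS1, RBM3, DDX5, HNRNPA1, HEXIM1, INTS6, INTS1, UBTF, POLR1E, TCOF1, SNHG1 and SNHG17, while HABP4 kept its call. KRAB-type zinc finger symbols had 13 higher and 12 lower of 415 tested, which is 6.02% and near the 6.41% of all genes. Library size alone gave 9 higher and 1 lower, and DESeq2 gave 4 and 1.

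Among genes of the ribosomal DNA repeats on the short arm of chromosome 21, the annotated microRNA genes rose. MIR3648, MIR3687 and MIR6724 are annotated within these repeats. Reads there can come from other transcripts of the repeats as well as from a microRNA gene. The copies are near-identical, so the share of each copy is uncertain. All 8 listed copies rose, beside 3.65% of all tested genes, with a median log2 fold change of 1.72. DESeq2 called 5 of the 8, and 6 to 8 were called with 1 library left out, the calls of MIR3687-1 and MIR3687-2 being lost without replicate 2 at 15 min. MIR3648-1 (chromosome 21, 8208473 to 8208652, + strand) had 34.4 and 39.6 CPM in untreated cells, 293 and 84.4 CPM at 15 min and 1996 and 1423 CPM at 3 h. The 15 min replicates lay far apart, and the 3 h libraries were above both (log2 fold change 3.18 ± 0.31 SE, edgeR adjusted p = 6.6e-09). Without replicate 1 at 15 min the log2 fold change was 4.34, and without replicate 2 it was 2.54. MIR3687-1 had 1176 and 440 CPM at 15 min and 2629 and 2364 CPM at 3 h (1.63 ± 0.34 SE, edgeR adjusted p = 0.0015). MIR6724-1 had 10.4 and 4.65 CPM at 15 min and 21.8 and 27.0 CPM at 3 h (1.69 ± 0.22 SE, edgeR adjusted p = 1.6e-06).

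The mature microRNAs encoded by these genes are shown for their base composition, with the seed (bases 2 to 8, the part that pairs with targets) in capitals. RefSeq (GRCh38.p14) gave a mature sequence for 3 of the 8 copies, and these were read from MIR3648-2 (chr21:8987026-8987046, + strand) and MIR6724-2 (chr21:8249515-8249537, + strand), with MIR6724-4 identical. The sequence of miR-663a, from the chromosome 20 gene within MIR663AHG (chr20:26208243-26208264, - strand), is set beside them. The 3 seeds differ. The G and C content of the mature RNAs was 81.0%, 91.3% and 90.9%.
hsa-miR-3648: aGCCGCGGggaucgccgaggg
hsa-miR-6724-5p: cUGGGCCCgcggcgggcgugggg
hsa-miR-663a: aGGCGGGGcgccgcgggaccgc

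MIR663AHG, a host gene model on chromosome 20, rose from 227 and 99.5 CPM at 15 min to 614 and 484 CPM at 3 h (log2 fold change 1.75). Other genes of the repeat did not rise by the test. Those that hold the 5.8S rRNA, such as RNA5-8SN2 with 2517 and 2209 CPM at 15 min and 2134 and 2475 CPM at 3 h, did not pass the test (log2 fold change -0.04). FP671120.1 and FP236383.1, long lincRNA models that span these repeats on the same strand, fell: FP671120.1 had 3367 and 2383 CPM at 15 min and 1762 and 1824 CPM at 3 h (-0.68 ± 0.16 SE, edgeR adjusted p = 0.0052), a call that was lost without at least 1 library. With the trend on transcript GC content removed, an alternative chosen after seeing the data, the median of the 8 microRNA genes was 1.17.

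**Figure D4:**
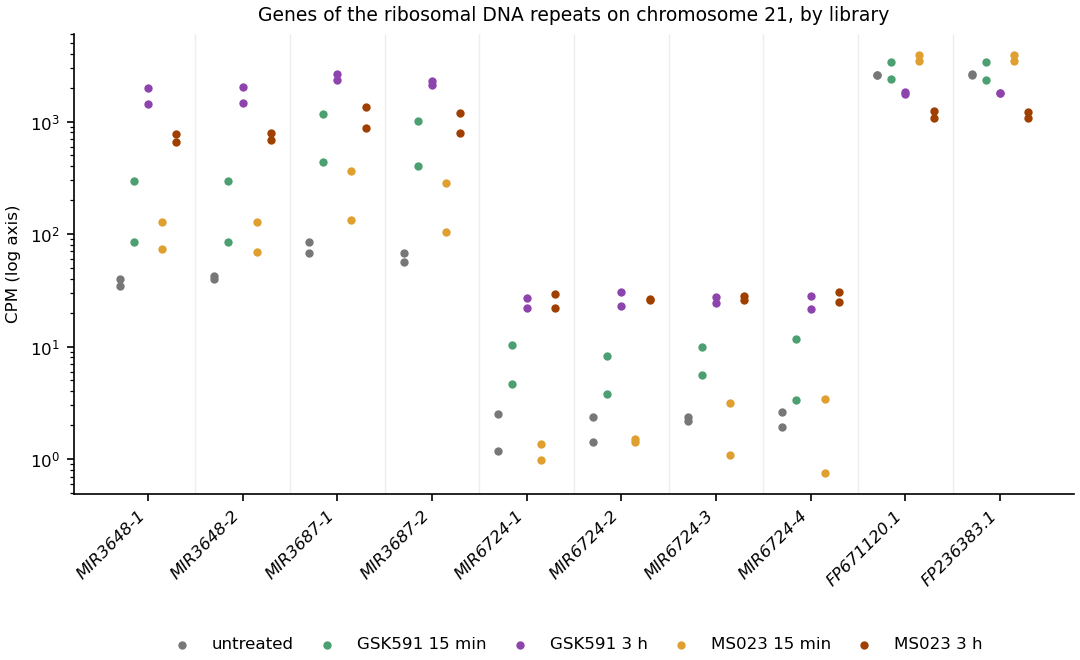
CPM (vertical axis, log scale) of 10 genes of the chromosome 21 ribosomal DNA repeats, with 1 point per library and 5 groups of 2 libraries. In the 8 microRNA genes the GSK591 3 h points lie above the GSK591 15 min points, which lie above untreated cells, while in FP671120.1 and FP236383.1 the 3 h points are the lower ones.

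The share of genes called varied with gene structure. Of 14351 tested protein-coding genes, those called higher had a median span of 20.15 kb against 30.6 kb for all. Among the 1436 genes with the shortest span, up to 5.07 kb, 8.22% were called higher and 3.62% lower, and among the 1435 longest, from 156 kb, these shares were 2.93% and 2.86%. Genes with 1 or 2 exon blocks were called higher in 8.04% and lower in 3.92%, while genes with 21 or more were called higher in 2.48% and lower in 4.08%. Transcript GC content had a median of 49.7% in all protein-coding genes, 52.3% in those higher and 55.4% in those lower. The counts followed exon length (slope 0.88 ± 0.03 SE on the log scale over 7036 genes) and, for a given exon length, were lower in genes of longer span (slope -0.345 ± 0.014 SE). Which features the authors counted is not given in the sources used here. Processed pseudogenes had 6 higher and 25 lower of 1370, with a median of -0.17. The part of gene length or base composition in these shares was not tested.

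The same time points with MS023 gave the closest comparison, and no library is shared between the inhibitors' time contrasts. MS023 had 2640 called genes (12.0% of those tested), 1676 of them higher (7.65%) and 964 lower (4.4%), and 1160 calls were left without replicate 1 at 15 min, 1649 without replicate 1 at 3 h and 1674 without replicate 2 at 3 h. Of the 1405 GSK591 calls 57.6% were also called with MS023, which is 30.6% of the MS023 calls, and 806 of these 809 genes had the same direction. Testing the inhibitors' time changes against each other called 123 genes (0.561%), of which 20 changed more positively with GSK591 (0.0913%) and 103 more negatively (0.47%), and 2194 had an unadjusted p under 0.05. Of the 123 genes, 38 were also called in the GSK591 contrast, and 49 had changes of opposite sign. The count rested on single libraries, since 1 gene was called without replicate 1 of MS023 at 15 min and 192 without replicate 2 of that group. Without replicate 2 of MS023 at 3 h 79 genes were called, without replicate 1 of GSK591 at 15 min 16, and without replicate 1 of GSK591 at 3 h 27. Scaling by library size alone gave 26 genes, 21 of them more positive with GSK591, and moved the median difference of all genes to 0.19, so the direction of the balance depends on the scaling.

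In the 103 genes with the more negative change under GSK591, the inhibitors' levels lay farther apart at 15 min than at 3 h in 87. The median log2 ratio of the GSK591 mean to the MS023 mean was 0.71 at 15 min and -0.19 at 3 h. SRXN1 had 20.4 and 14.2 CPM at 15 min and 24.5 and 28.9 CPM at 3 h of GSK591, against 6.05 and 9.01 CPM and then 32.2 and 33.4 CPM with MS023 (difference of log2 fold changes -1.53, edgeR adjusted p = 0.0012). CITED4, a CBP and p300 binding transactivator gene, had 39.7 and 28.2 CPM and then 51.1 and 51.0 CPM with GSK591, and 12.6 and 19.7 CPM and then 61.0 and 52.5 CPM with MS023 (-1.26, edgeR adjusted p = 0.0012). The 3 h levels of both genes were close, and the 15 min levels were not. SMAD7, an inhibitor of TGF-beta signalling, had a log2 fold change of -0.04 with GSK591 against 0.91 with MS023, and IRF2BP2, a transcriptional corepressor, had -0.07 against 0.93.

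The 20 genes with the more positive change under GSK591 included SAT2. This gene of the polyamine acetyltransferase family had 20.96 and 18.96 CPM at 15 min and 30.0 and 27.6 CPM at 3 h of GSK591, and 32.5 and 25.5 CPM and then 20.7 and 21.2 CPM with MS023 (difference 1.01, edgeR adjusted p = 0.0091). RSRP1, an arginine and serine rich protein gene, rose by 0.45 with GSK591 and had a value of -0.27 with MS023 (difference 0.72, edgeR adjusted p = 0.019). RNGTT, the mRNA capping enzyme, had 4.36 and 3.46 CPM at 15 min and 6.33 and 6.74 CPM at 3 h of GSK591 (0.74, which did not pass the test on its own) and a log2 fold change of -0.87 with MS023 (edgeR adjusted p of the difference 0.021). SAT2, RSRP1, RNGTT, SMAD7, IRF2BP2, MIR663AHG, RNA5-8SN2 and FP671120.1 were chosen after their values were seen. Of the 19 heat shock genes, 0 differed between the inhibitors by edgeR's quasi-likelihood test, with 3 at an unadjusted p under 0.05, and 1 of the 29 p53 targets did (PHLDA3). For HSPA1A the log2 fold changes were 0.74 with GSK591 and 0.28 with MS023, and the difference did not pass the test (edgeR adjusted p = 0.18).

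**Figure D5:**
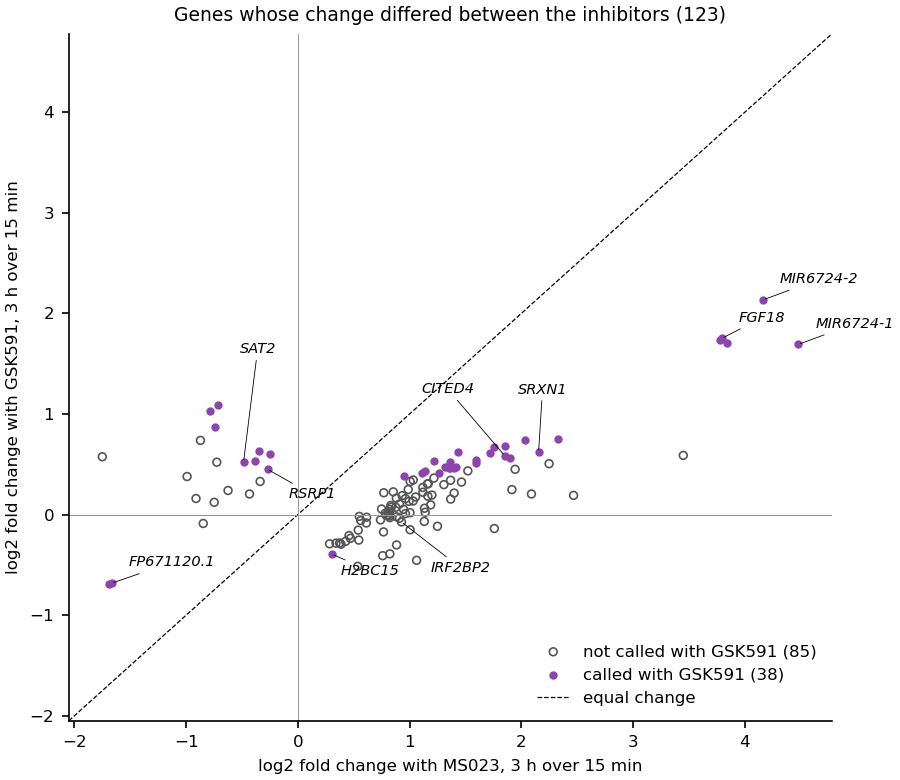
Log2 fold change from 15 min to 3 h with GSK591 (vertical axis) against that with MS023 (horizontal axis) for the 123 genes whose change differed between the inhibitors, filled where the gene was also called with GSK591 (38 genes); the dashed line marks equal change. The 103 genes below the line include SRXN1, CITED4 and the MIR6724 genes, and the 20 above it include SAT2 and RSRP1.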

How the data were processed

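PRO-seq counts were deposited by the authors as 1 table of raw counts per gene for 14 libraries. The counts were made with featureCounts 2.0.1 (Subread) on hg38, per the submitters' processing notes. The aligner, the counted feature, how duplicates were treated and whether strand was used are not given in the sources used here. The table held 58780 genes, and missing symbols and coordinates came from GENCODE release 29. All 14 libraries, 2 in each of 7 groups, were fitted together in edgeR 4.0.16 (R 4.3.3) with TMM scaling, filterByExpr at a minimum count of 10 and the quasi-likelihood test, with 7 residual degrees of freedom. P-values were adjusted by Benjamini-Hochberg over 21910 genes, and a gene was called at an adjusted p under 0.05. CPM used TMM-scaled library sizes. A permutation test of 2 against 2 libraries cannot go below p = 0.3333, so none was used. The code was tested on simulated data.

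Named genes were called genes of at least 3 CPM with no overlap between the groups: the 10 protein-coding genes and 4 others that rose or fell most, up to 3 of smallest p per list, and 3 of the difference between inhibitors, plus PRMT5 and SNRPB. Other list members are named for their known roles, after their values were seen. Some genes that entered the fit and the counts are not reported here by name. The comparison and the gene lists were chosen with earlier results of these data known. Alternatives covered scaling, filters, depth, DESeq2 1.42.0, the replicate block and leaving out libraries, and removal of a GC trend was chosen after seeing the data.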

Additional observations from a re-analysis of the deposited data

Results flagged for a closer look

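The change from 15 min to 3 h differed between GSK591 and MS023 in 123 genes by a test of the difference itself. Of the named genes, 6 were among them, each with a more negative change under GSK591. The difference in log2 fold change, GSK591 minus MS023, was -1.53 for SRXN1, -1.26 for CITED4, -2.04 for FGF18 and -0.70 for H2BC15. It was -2.79 for MIR6724-1 and -2.03 for MIR6724-2, whose copies share reads. H2BC15 fell with GSK591 (log2 fold change -0.39) and had a value of 0.31 with MS023, and the other 5 genes rose with both inhibitors. Groups of 2 libraries are too small to search for single outlying libraries.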

How the results depend on the processing

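The 83 called named genes kept their direction under every alternative that gave a value, and 42 of them also kept their call. The 1405 calls of the GSK591 contrast became 712 with library size alone and 584 with DESeq2, and ranged from 388 to 665 with 1 library left out. The 2640 calls of the MS023 contrast became 1426 with DESeq2 and ranged from 1160 to 1789 with 1 library left out. The 123 genes that differed between inhibitors became 26 with library size alone, 206 with no count filter, 36 with DESeq2 and 67 with counts thinned to equal depth, and ranged from 1 to 192 with 1 library left out. The cause was not tested, except that leaving out a library leaves fewer samples and thinning fewer counts. With the replicate number as a block, 1496, 2739 and 147 genes were called in these 3 comparisons. The labels do not say whether the replicate numbers pair the libraries. The replicate differences of the 15 min and 3 h groups correlated at -0.07 across genes for GSK591, which cannot settle how they were paired. Depth limits genes of few CPM most.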
